A study of Arabidopsis thaliana with 12 samples.

Results

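Transcripts for 4 subunits of enzymes of the tricarboxylic acid cycle were followed in Arabidopsis thaliana seeds kept with or without added gibberellin. The genes were IDH-V (AT5G03290) and IDH-VI (AT3G09810), subunits of NAD-dependent isocitrate dehydrogenase, and SDH2-1 (AT3G27380) and SDH2-2 (AT5G40650), subunits of succinate dehydrogenase. A probe set was taken as a member when the platform annotation gave it to exactly 1 of these genes. This rule found 5 probe sets for the 4 genes, among 22746 on the array, of which 13513 name a single gene and cover 13350 genes in all. SDH2-1 has 2 probe sets and each of the other genes has 1. Of the 5, 4 were bright enough to be analysed, 1 for each gene. The genes were picked with their higher signals under gibberellin already known. Their differences between gibberellin and water are therefore given as a description, with no test.

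The seeds were of the Ler background, from stock N3742. The 6 groups were water for 3, 6 or 9 h and 5 µM gibberellin for 3, 6 or 9 h, each with 2 arrays lettered A and B. All groups share the background and stock, and water was the control at each time. The sources used here do not give the form of gibberellin, any allele of the stock beyond its background or what the letters stand for. The p-values therefore measure only the spread between these arrays, which may be technical.

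Gibberellin is the hormone that promotes germination, and a germinating seed starts up mitochondrial respiration. In the tricarboxylic acid cycle, NAD-dependent isocitrate dehydrogenase of the mitochondrial matrix oxidises isocitrate to 2-oxoglutarate and yields NADH. The plant enzyme is built of catalytic subunits, to which IDH-V and IDH-VI belong, and of regulatory subunits. Succinate dehydrogenase oxidises succinate to fumarate and passes the electrons to ubiquinone, so that it is also complex II of the respiratory chain. Its SDH1 subunit carries the flavin and binds succinate, and its SDH2 subunit carries the iron-sulphur clusters that lead the electrons onward. In oilseeds, succinate also comes from the glyoxylate cycle, which handles the carbon of the stored oil.

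Each array gave signals on a linear scale that had been scaled to the same mean, so a change in the total RNA of a seed is not seen. Because whole seeds were used, fewer cells of a type and less RNA per cell cannot be told apart. The highest signal was 3308 to 3787 on 4 arrays, the A arrays at 3 h and 6 h of both treatments, and 6511 to 9143 on the other 8. Differences taken between arrays of 1 letter at 3 h or 6 h therefore compare arrays with a like ceiling. Comparisons of 3 h or 6 h with 9 h set A arrays of a low ceiling against A arrays of a high one. No member signal exceeded 739.7, well under the lowest ceiling. Whether the difference in ceiling goes with a shift in signals of this size was not tested. The seed label could not be checked, because 0 of 13 seed storage, oleosin and EM markers have a probe set of their own here. Of 7 green leaf markers, 2 were measured: the signal of RCA lay between 133 and 485 and that of LHCB4.1 between 161 and 381.

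IDH-V, a catalytic subunit of isocitrate dehydrogenase, gave higher signals with gibberellin at each time, by the least at 6 h. In water its signal was 293 and 274 at 3 h, 445 and 464 at 6 h, and 241 and 379 at 9 h, for arrays A and B. With gibberellin it was 472 and 386 at 3 h, 492 and 529.5 at 6 h, and 597 and 535 at 9 h. The treatments did not overlap at any of the 3 times, but the water signals at 6 h came close to the gibberellin signals. The log2 difference between gibberellin and water was 0.59 at 3 h, 0.17 at 6 h and 0.90 at 9 h, each ± 0.215 (SE, n = 2 arrays per group). As a ratio these are 1.51-fold, 1.12-fold and 1.87-fold. At 9 h the difference was 1.31 between the A arrays and 0.50 between the B arrays, since the water arrays themselves lay far apart. Without water array A at 9 h it was 0.58, and without water array B it was 1.23.

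In increasing order of the mean, the IDH-V signal was 283 ± 13.5 in water at 3 h, 310.2 ± 97.5 in water at 9 h, 429 ± 61.1 with gibberellin at 3 h, 455 ± 13.4 in water at 6 h, 511 ± 26.5 with gibberellin at 6 h and 566 ± 44.2 with gibberellin at 9 h (SD, n = 2 arrays). The arrays of the first pair of neighbours in this order overlapped. So did those of gibberellin at 3 h and water at 6 h, which means that water alone at 6 h reached the level seen with gibberellin at 3 h. The other neighbours did not overlap.

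IDH-VI, the other catalytic subunit measured, had a difference from water that was larger at each later time. Its water signals were 48.1 and 61.7 at 3 h, 50.0 and 50.5 at 6 h, and 47.7 and 40.4 at 9 h. Its gibberellin signals were 68.7 and 91.7 at 3 h, 97.7 and 97.3 at 6 h, and 125 and 95.6 at 9 h. Every gibberellin array lay above every water array, whatever the time. The log2 difference was 0.54 at 3 h, 0.96 at 6 h and 1.31 at 9 h, each ± 0.246 (SE, n = 2 arrays per group), or 1.46-fold, 1.94-fold and 2.49-fold. The A and B arrays gave like values, at 0.51 and 0.57 at 3 h, 0.97 and 0.95 at 6 h, and 1.39 and 1.24 at 9 h.

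The mean IDH-VI signal with gibberellin was 80.2 ± 16.3 at 3 h, 97.5 ± 0.275 at 6 h and 110.2 ± 20.6 at 9 h (SD, n = 2 arrays). The 6 h and 9 h arrays overlapped, so these levels did not differ beyond their spread. In water the mean was 54.9 ± 9.62 at 3 h, 50.3 ± 0.379 at 6 h and 44.1 ± 5.15 at 9 h. The 3 h and 6 h water arrays overlapped. The step in IDH-VI difference from 3 h to 9 h, 0.77 ± 0.348 on the log2 scale, thus joined a gibberellin signal that was higher by 0.46 with a water signal that was lower by 0.31.

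SDH2-1, an iron-sulphur subunit of succinate dehydrogenase, gave higher signals with gibberellin at each time, by the most at 9 h. Its water signals were 249.9 and 287 at 3 h, 298 and 315 at 6 h, and 249 and 251 at 9 h. Its gibberellin signals were 371 and 412 at 3 h, 524 and 455 at 6 h, and 548 and 739.7 at 9 h. All 6 gibberellin arrays lay above all 6 water arrays, and gibberellin array B at 9 h stood well above its partner. The log2 difference was 0.55 at 3 h, 0.67 at 6 h and 1.35 at 9 h, each ± 0.187 (SE, n = 2 arrays per group). These are 1.46-fold, 1.59-fold and 2.55-fold.

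The mean SDH2-1 signal was 250.0 ± 1.18 in water at 9 h, 269 ± 26.3 in water at 3 h and 306 ± 12.1 in water at 6 h, and the first pair overlapped. It went on to 392 ± 29.1, 489 ± 48.4 and 644 ± 136 with gibberellin at 3, 6 and 9 h (SD, n = 2 arrays), and none of these neighbours overlapped. As for IDH-V, its gibberellin arrays at 3, 6 and 9 h were all apart from each other, which did not hold for IDH-VI or SDH2-2. Its difference grew by 0.13 ± 0.264 on the log2 scale from 3 h to 6 h and by 0.68 ± 0.264 from 6 h to 9 h. The first step joined a change of 0.32 with gibberellin and one of 0.19 in water. The second step joined a change of 0.38 with gibberellin and one of -0.29 in water. Within letters the difference at 9 h was 1.14 for A and 1.56 for B.

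The second SDH2-1 probe set lay between 0.453 and 8.04 on all 12 arrays, below the filter signal of 16. It was not tested, and its signals have no usable order. The values of SDH2-1 above therefore rest on the brighter probe set alone, and the 2 probe sets of this gene disagree in brightness.

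SDH2-2, which encodes the same kind of iron-sulphur subunit, was apart from water at 6 h and 9 h but not at 3 h. Its water signals were 224 and 201 at 3 h, 254 and 245 at 6 h, and 246 and 199.9 at 9 h. Its gibberellin signals were 320.0 and 195 at 3 h, 408 and 336 at 6 h, and 483 and 355 at 9 h. At 3 h gibberellin array B was below both water arrays and array A above them. The log2 difference was 0.24 at 3 h, 0.57 at 6 h and 0.90 at 9 h, each ± 0.248 (SE, n = 2 arrays per group), or 1.18-fold, 1.48-fold and 1.87-fold.

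At 3 h the SDH2-2 difference was 0.51 between the A arrays and -0.04 between the B arrays. It was 0.59 without gibberellin array B and -0.12 without gibberellin array A, so at this time its sign rested on 1 array. At 6 h it was 0.68 for A and 0.46 for B, and at 9 h 0.98 and 0.83. The mean signal ran from 212 ± 16.7 in water at 3 h to 223 ± 32.3 in water at 9 h, 249 ± 6.63 in water at 6 h and 258 ± 88.1 with gibberellin at 3 h (SD, n = 2 arrays). Each of these 4 groups overlapped with its neighbours in this order. The means with gibberellin at 6 h and 9 h, 372 ± 50.9 and 419 ± 90.4, overlapped with each other and lay above the rest.

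**Figure D1:**
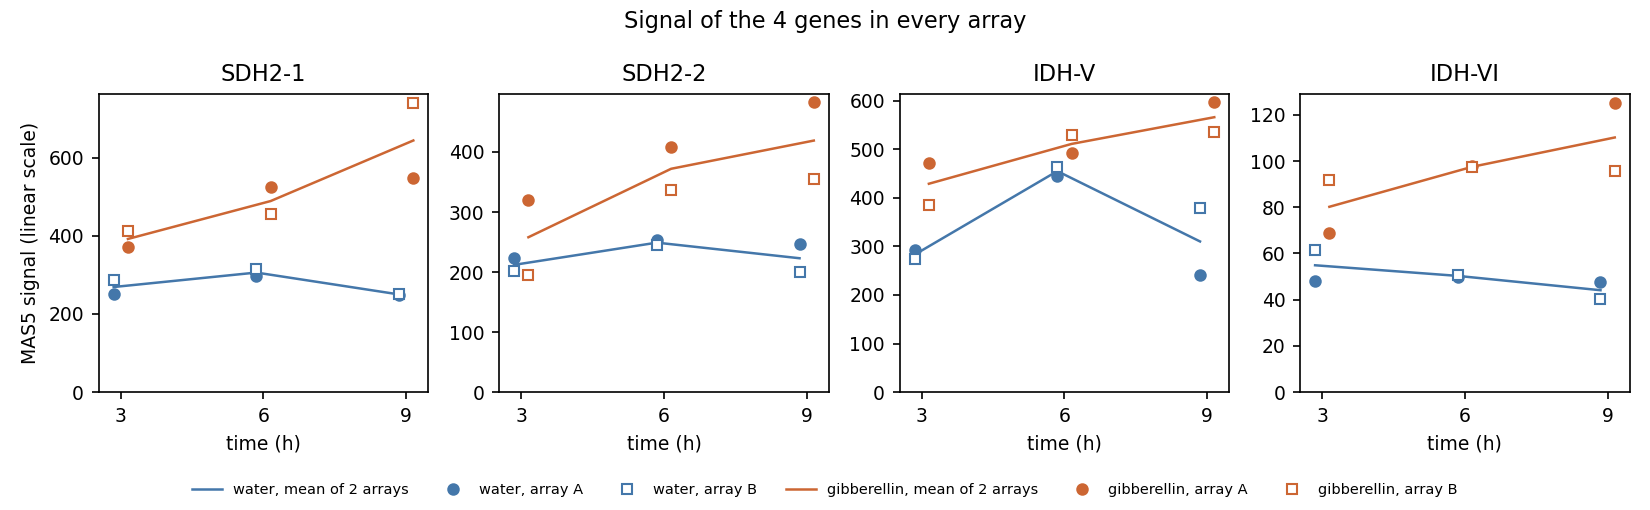
MAS5 signal (linear scale) of the 4 members past the brightness filter against time in hours, with 1 point per array (A and B) and a line through the group means, for water and 5 µM gibberellin. IDH-VI and SDH2-1 gibberellin arrays all lie above the water arrays, IDH-V in water peaks at 6 h, and SDH2-2 treatments overlap at 3 h.

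With gibberellin, both arrays lay above both water arrays for 3 of the 4 genes at 3 h and for all 4 at 6 h and at 9 h. Among all 15766 probe sets bright enough to test, 14.5% had such groups at 3 h, 20.3% at 6 h and 25.0% at 9 h. At all 3 times together this held for 3 of the 4 genes and for 5.23% of the probe sets. Nothing is read from these counts, because the genes had been picked on the same contrast. Of the probe sets tested, 8.85% had a difference at least as high as that of SDH2-1 at 3 h, 10.0% at 6 h and 4.66% at 9 h. For IDH-VI these shares were 8.92%, 6.22% and 4.86%. For IDH-V they were 7.93%, 34.0% and 9.27%, the share at 6 h being the largest for any of the genes at any time. For SDH2-2 they were 22.3%, 12.4% and 9.28%.

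**Figure D2:**
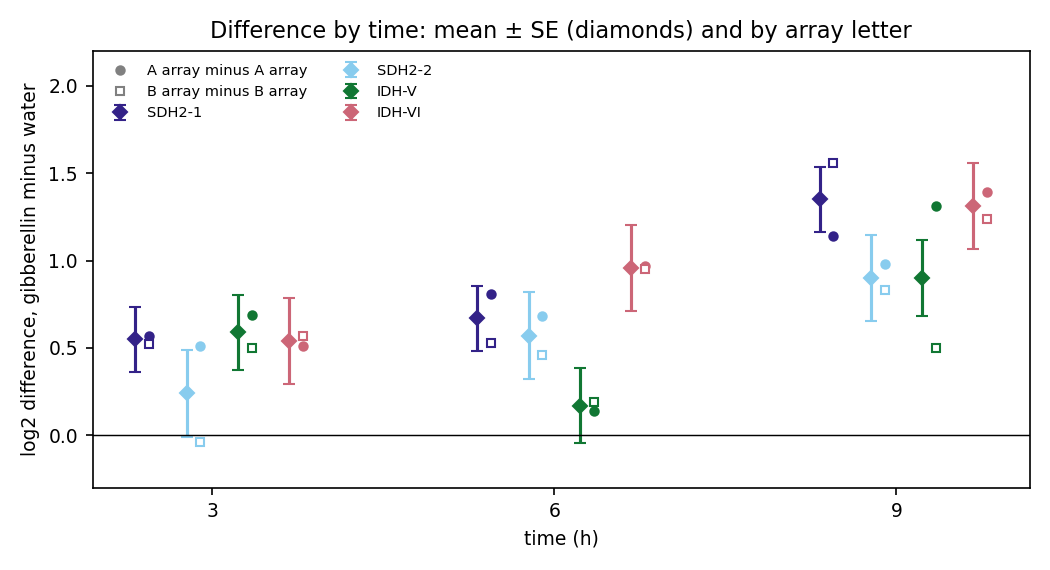
Log2 difference of gibberellin minus water at 3, 6 and 9 h for the 4 members, as the model's value ± SE, with the A minus A and B minus B differences as separate points. Of the 24 letter differences, 23 are above 0, the exception being SDH2-2 at 3 h in the B arrays (-0.04).

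The timing differed in form among the genes, as a description of these means. Between 3 h and 6 h of gibberellin the signal was higher at the later time by 0.57 for SDH2-2, 0.32 for SDH2-1, 0.30 for IDH-VI and 0.26 for IDH-V on the log2 scale. Between 6 h and 9 h it was higher by 0.38 for SDH2-1 and by 0.15 to 0.16 for the other 3 genes. The SE of each such step was 0.187 for SDH2-1, 0.248 for SDH2-2, 0.215 for IDH-V and 0.246 for IDH-VI. Whether the steps differed between genes was not tested. The step of SDH2-2 from 3 h starts from gibberellin arrays that lay far apart, at 320.0 and 195. The A arrays of 6 h and 9 h differ in ceiling, which limits the comparison of 6 h with 9 h. The differences of SDH2-1, SDH2-2 and IDH-VI from water were larger at each later time, whereas that of IDH-V was smallest at 6 h. Isoforms cannot be ranked by abundance from these arrays, because each probe set has its own affinity for its transcript. Whether the lower signals of IDH-VI than of IDH-V go with fewer transcripts is thus unknown.

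The water arrays show the signals without added gibberellin. Contrasts between times in water did not themselves enter the choice of genes. The same arrays are, however, the water side of the differences on which the genes were picked. The p-values and intervals of the water contrasts are therefore not independent of that choice. No water contrast of any of the 4 genes passed the test, and each had an adjusted p of 1 (limma, Benjamini-Hochberg over 15766 probe sets). Of the 12 contrasts, 2 had an unadjusted p under 0.05, and both belonged to IDH-V. These 2 contrasts share the water arrays of 6 h, so they are not independent of each other. The IDH-V signal in water was higher at 6 h than at 3 h by 0.68 ± 0.215 on the log2 scale (95% interval 0.21 to 1.15, limma unadjusted p = 0.00833). It was then lower at 9 h than at 6 h (log2 difference -0.59, interval -1.06 to -0.12, limma unadjusted p = 0.0188). In both comparisons the arrays of the 2 times did not overlap. The A arrays of 6 h and 9 h also differ in ceiling.

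For the other genes the interval of the 9 h minus 3 h difference in water was -0.51 to 0.31 for SDH2-1, -0.48 to 0.61 for SDH2-2 and -0.85 to 0.23 for IDH-VI, on the log2 scale. Changes of any size within those bounds are not excluded. Across all probe sets, 0 (0%) passed in each of the 3 water contrasts by limma. At an unadjusted p under 0.05 there were 291 (1.85%) for 6 h against 3 h, 326 (2.07%) for 9 h against 3 h and 339 (2.15%) for 9 h against 6 h.

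Among the other subunits of the same enzymes, only SDH1-1 was bright enough to test. No other subunit of NAD-dependent isocitrate dehydrogenase could be tested. SDH1-1, the flavoprotein subunit of succinate dehydrogenase, had water signals of 823 and 929 at 3 h, 724 and 747 at 6 h, and 745 and 711 at 9 h. Its gibberellin signals were 803 and 809 at 3 h, 772 and 724 at 6 h, and 843 and 771 at 9 h. The gibberellin arrays of SDH1-1 were below water at 3 h and above it at 9 h. The log2 difference for SDH1-1 was -0.12 at 3 h, 0.02 at 6 h and 0.15 at 9 h, each ± 0.160, and none passed the test (limma adjusted p of 1, 0.979 and 0.672). At 9 h its interval was -0.20 to 0.50, whereas its partner subunit SDH2-1 was at 1.35. The difference between those 2 genes was not tested.

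The remaining subunits with a probe set of their own were dim. SDH1-2, the other gene for the flavoprotein, never exceeded 9.81. IDH-III, a regulatory subunit, and IDH-IV reached 18.9 and 17.2 at most, with 1 array each above 16. None of the 3 was tested. Of the NAD-dependent isocitrate dehydrogenase genes, 4 of 6 have a probe set of their own here, and of the succinate dehydrogenase genes 4 of 14, and the rest were not analysed here.

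**Figure D3:**
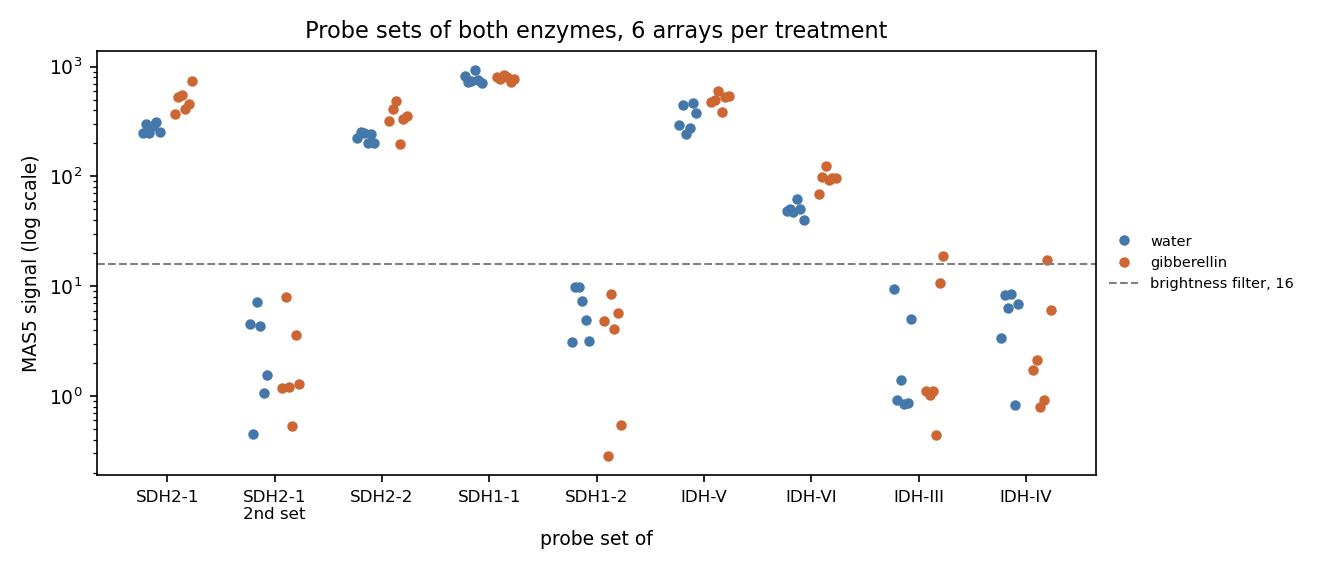
MAS5 signal on a log10 axis of each probe set of the 2 enzymes, with 6 water and 6 gibberellin arrays as points and the brightness filter of 16 as a dashed line. SDH2-1, SDH2-2, SDH1-1, IDH-V and IDH-VI lie above the filter on all 12 arrays, whereas the second SDH2-1 probe set and SDH1-2 lie below it on all. Heights of different probe sets are not comparable as transcript levels.

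The NADP-dependent isocitrate dehydrogenases catalyse the same oxidation with another coenzyme, cICDH in the cytosol. None of the 3 measured passed the test in the comparisons with water. The log2 difference for cICDH was -0.22, -0.08 and -0.03 at 3, 6 and 9 h (SE 0.220). For ICDH it was -0.22, 0.04 and -0.53 (SE 0.208), and at 9 h both gibberellin arrays, at 126 and 99.3, lay below the water arrays at 146 and 177 (limma adjusted p = 0.157). For AT5G14590 it was 0.06, 0.14 and -0.01 (SE 0.168).

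Around these enzymes, a list of the tricarboxylic acid cycle, the glyoxylate cycle, the respiratory complexes and the alternative dehydrogenases was read with the 4 genes taken out. Of its 119 loci, 47 have a probe set of their own and 43 were bright enough to test. At 9 h, 4 of the 43 (9.30%) rose and 0 fell, beside 7.47% of all probe sets called, 3.79% higher and 3.69% lower. The median log2 difference of the 43 was 0.11 at 9 h, against -0.00 over all probe sets tested. By limma, 0 of 43 passed at 6 h and 0 at 3 h, where 1.48% and 0.228% of all probe sets were called. At an unadjusted p under 0.05, 9 of the 43 passed at 9 h, 2 at 6 h and 0 at 3 h, beside 22.2%, 11.5% and 5.26% of all probe sets. The medians at 3 h and 6 h were 0.05 and 0.04. With the signal ceiling of the array as a block, 8 of the 43 passed at 9 h and 1 at 6 h, and without the intensity trend of the model 2 passed at 9 h. Among all probe sets, too, more passed with the ceiling block and fewer without the trend. The shares of 7.47% and 1.48% above are therefore not the match for these list counts. The list was chosen with earlier results of these data known.

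Among the other genes of the tricarboxylic acid cycle and the enzyme complexes that feed it, 2 of 11 rose at 9 h, beside 3.79% of all probe sets. AT3G55410 had signals of 192 and 181 in water and 383 and 314 with gibberellin, a log2 difference of 0.90 ± 0.203 (limma adjusted p = 0.0222). AT3G13930 had 292 and 280.0 in water and 524 and 513 with gibberellin, a difference of 0.86 ± 0.169 (limma adjusted p = 0.0115). In both, the arrays of the treatments were apart at 9 h. Another gene of this list, AT5G08300, had 0.60 at 9 h and did not pass (limma adjusted p = 0.0879). At 6 h the values of largest size in the list were -0.53 for AT5G65750 and 0.42 for AT5G08300, and at 3 h 0.42 for AT1G54220 and 0.26 for AT5G08300, none past the test.

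The glyoxylate cycle was seen through 1 gene of 16, ICL, which encodes isocitrate lyase, the enzyme that splits isocitrate into succinate and glyoxylate. Its log2 difference was -0.92, 0.03 and 0.16 at 3, 6 and 9 h (SE 0.821). ICL reached 8088 and lay between 1172 and 2368 on the 4 arrays with the low ceiling and between 4171 and 8088 on the others. The part of the ceiling in the ICL value was not tested.

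In the respiratory chain, 0 of 5 genes of complex I, 0 of 9 of complex III and cytochrome c, 0 of 7 of complex IV and 0 of 2 of the ATP synthase passed at 9 h by limma. At an unadjusted p under 0.05 these counts were 0, 2, 1 and 0. Of all probe sets, 7.47% passed by the adjusted p and 22.2% by the unadjusted p at 9 h. With 2 to 9 genes per list, a count of 0 cannot be told from those shares. The cytochrome c genes CYTC-2 and CYTC-1, which encode the carrier between complexes III and IV, had the values of largest size in their list at 9 h. CYTC-2 was at 0.73 (limma adjusted p = 0.145) and CYTC-1 at 0.55 (0.118). In complex IV, AT5G61310 was at 0.58 (limma adjusted p = 0.124) and AT4G37830 at -0.47 (0.321). In complex I, FRO1 was at 0.32 and AT3G12260 at -0.29, and in the ATP synthase AT5G47030 was at -0.19 and AT1G51650 at 0.08.

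NDB2 and NDB3, which encode alternative NAD(P)H dehydrogenases of the mitochondrial inner membrane, made up the other calls at 9 h. They were 2 of 4 genes tested in their list, beside 3.79% of all probe sets called higher. NDB2 had signals of 35.9 and 40.4 in water and 105 and 99.2 with gibberellin at 9 h. Its log2 difference was 1.42 ± 0.269 (limma adjusted p = 0.00953). At 6 h its signals, 53.7 and 53.4 in water and 86.4 and 133 with gibberellin, were also apart but did not pass (limma adjusted p = 0.114). NDB3 had 7.54 and 12.0 in water and 344 and 357 with gibberellin at 9 h. Its log2 difference was 5.20 ± 1.31 (limma adjusted p = 0.0346). Since both NDB3 water signals lay under the filter of 16, the size of that difference is uncertain. At 6 h the NDB3 signals were 0.756 and 24.1 in water and 213 and 102 with gibberellin, a difference of 5.11 that did not pass (0.0946).

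**Figure D4:**
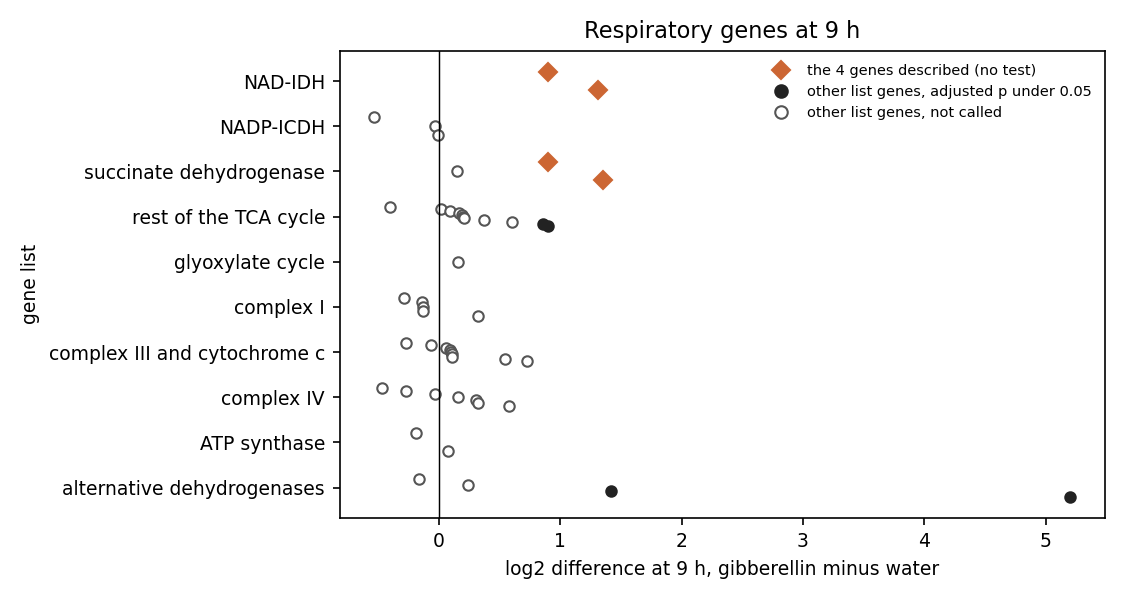
Log2 difference of gibberellin minus water at 9 h for each measured gene of the respiratory lists past the brightness filter, 1 point per gene and 1 row per list, with members, genes past the test and other genes marked apart. The 4 members are drawn without a test, and of the rest AT3G55410, AT3G13930, NDB2 and NDB3 passed it, each higher with gibberellin.

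These 4 calls rested on the 9 h arrays, and leaving out any of those arrays also left fewer of all probe sets past the test. Leaving out water array A, water array B or gibberellin array A at 9 h each left 0 of the 43 genes past the test, with the log2 differences of the 4 genes still above 0. NDB3 also missed the threshold without gibberellin array B at 9 h or either gibberellin array at 6 h. Whether the effect differed between 9 h and 3 h was tested for the 43 genes, and 0 passed by limma as against 2 of all probe sets (0.0127%). At an unadjusted p under 0.05, 4 of the 43 did so, beside 6.81% of all.

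Over the 12 arrays, the log2 signals of SDH2-1 and IDH-VI had a Pearson r of 0.899, and those of IDH-V and IDH-VI one of 0.657. The other 4 pairs lay between 0.734 and 0.772. All these points share their arrays and the treatment on which the genes were picked, so the values are a description only. Among single-gene probe sets, the 5 closest to SDH2-1 were XTH19 (r = 0.977), AT1G51380 (0.974), AT5G56350 (0.963), AT1G16170 (0.957) and AT1G28680 (0.954). XTH19 encodes a xyloglucan endotransglucosylase/hydrolase of the cell wall. Closest to SDH2-2 were AT3G07320 (0.971), AT1G26850 (0.964), AT4G28310 (0.962), AT4G32460 (0.959) and AT2G26200 (0.957).

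Closest to IDH-VI were AT5G42960 (r = 0.982), AT1G14060 (0.957), AT2G31390 (0.955), AT1G69070 (0.948) and AT3G10530 (0.948). Closest to IDH-V were AT5G65650 (0.946), AT1G10020 (0.929), AT4G35660 (0.885), AT5G11340 (0.884) and AT4G10790 (0.881). None of the 4 genes was among the 5 closest of another, over these 12 arrays.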

How the data were processed

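The deposited values are probe-set intensity signals from 12 one-colour Affymetrix arrays of biotin-labelled total RNA, made with MAS5 per the submitters' processing notes (version not given in the sources used here). A trimmed mean of 100.0 on every array showed that they were deposited already scaled. Signals were taken to log2 without an offset or further normalization. After removal of 64 controls, a probe set was tested if at least 2 arrays exceeded a signal of 16, the 40th percentile, which kept 15766 of 22746 (69.3%). Names came from the platform annotation, and 13436 of 13513 single-gene probe sets matched the RefSeq table of TAIR10.1. Groups came from the treatment labels.

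A model with 6 group means was fitted with limma 3.58.1 in R 4.3.3 (eBayes with an intensity trend, 6 residual degrees of freedom, two-sided). Benjamini-Hochberg adjustment ran over all probe sets tested, with 0.05 as the threshold. Precision is limited by the number of arrays, the median SE of a 9 h difference being 0.317 on the log2 scale over all probe sets tested. The fit was tested on simulated data.

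Named were all member probe sets, the other subunits of both enzymes, and in each other list up to 4 genes past the test, by size of change (2 as values if none passed). For each member the 5 single-gene probe sets of highest correlation were named. The members and lists were chosen with earlier results of these data known. Alternatives were quantile normalization, median centring, an offset of 16, no filter, the letter or the ceiling as a block, no intensity trend, and leaving out each array. Promoter and protein sequences were not analysed here.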

Additional observations from a re-analysis of the deposited data

Results flagged for a closer look

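SDH1-1, the flavoprotein partner of SDH2-1 in succinate dehydrogenase, had both gibberellin arrays above water at 9 h and both below it at 3 h. The difference between the effects was 0.26 ± 0.227 on the log2 scale and did not pass the test of that difference (limma adjusted p = 0.893).

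AT1G54220, of the tricarboxylic acid cycle list, had both gibberellin arrays above both water arrays at 3 h. At 6 h its gibberellin signals, 55.6 and 55.3, lay below the water mean of 55.7 but between the water arrays, at 53.6 and 57.9. Its effects were 0.43 apart on the log2 scale (SE 0.357), which did not pass either (limma adjusted p of 1). Groups of 2 arrays are too small for a check of single arrays that stand apart.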

How the results depend on the processing

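The differences of the 4 genes between gibberellin and water stayed above 0 in all 84 values from other settings and in 143 of 144 values that left out an array. The exception was SDH2-2 at 3 h. Many of these values could not move. Leaving out an array of another group does not change a difference, and neither do the blocks, the filter or the trend. The genes were also picked for being higher with gibberellin, so these counts do not measure how firm the differences are. The 9 h difference of IDH-VI was 1.06 with log2(signal + 16), where an offset shrinks dim signals. Leaving out 1 array gave 1.13 to 1.57 for SDH2-1 at 9 h, -0.12 to 0.59 for SDH2-2 at 3 h, 0.58 to 1.23 for IDH-V at 9 h and 0.34 to 0.75 for IDH-VI at 3 h. In water it gave -0.20 to 0.00 for SDH2-1, -0.09 to 0.21 for SDH2-2 and -0.23 to 0.42 for IDH-V between 3 h and 9 h, and -0.30 to 0.06 for IDH-VI between 3 h and 6 h. The signs turned to 0.00 for SDH2-1 and 0.06 for IDH-VI without water array B at 3 h. They turned to -0.02 and -0.09 for SDH2-2 without water array B at 3 h or A at 9 h, and to -0.23 for IDH-V without water array B at 9 h. No water value of the 4 genes passed the test under any setting run.

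Counts of probe sets past the test at 3, 6 and 9 h were 36, 233 and 1178. They were 110, 857 and 2691 with the letter as a replicate block, 66, 505 and 1996 with the ceiling as a block, and 6, 81 and 639 without the intensity trend. Leaving out 1 array gave 15 to 31, 67 to 300 and 256 to 1268. For the 9 h effect minus the 3 h effect, 2 probe sets passed. There were 163 with the replicate block, 40 with the ceiling block, 4 with the offset, 1 with quantile normalization or no trend, and 1 to 46 without 1 array. In water at 9 h against 3 h, 2 passed with the replicate block. The cause was not tested.

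Of the 43 list genes, 9 passed at 9 h with the replicate block, 8 with the ceiling block and 2 without the trend. At 6 h the replicate block gave 2, and the offset and the ceiling block 1 each. Leaving out 1 array gave 0 to 4 at 9 h and 0 to 1 at 6 h. Without the trend, AT3G55410 (limma adjusted p = 0.0632) and NDB3 (0.104) no longer passed. Deviations of same-letter arrays correlated at 0.077 to 0.275 over 15 pairs of groups, 14 of them over 0.1. At 3, 6 and 9 h the values between water and gibberellin were 0.275, 0.169 and 0.103. With 2 letters, 1 pair of groups at 0.1 or less and no label that gives the letters a shared source, they were not taken as pairs.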
